A study of Mus musculus with 12 samples.

Results

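The genes of DNA replication and S phase were followed in the kidneys of a mouse model of autosomal dominant polycystic kidney disease. The set holds 43 genes, found in the count table by gene name, and was chosen with earlier results of these data known. The table holds 54532 genes, of which 24642 were tested, and all 43 members passed the filter on low counts. They fall into 7 roles: origin licensing, activation of the helicase, the sliding clamp and its loader, polymerases and fork enzymes, nucleotide supply, copying of chromatin, and control of the step from G1 to S phase. Gene expression was measured by RNA-seq of flash-frozen whole kidney from 12 mice, 18 days old, in 4 groups of 3, each mouse being 1 replicate. The noncystic mice were Pkd1 RC/+ (a floxed Pkd1 RC/F genotype without Cre) and the cystic mice Pkd1 RC/- (the same genotype with Ksp-Cre, which removes the floxed allele), and each was either Pkd2 +/+ or Pkd2 Δ17/Δ17. RC is a hypomorphic Pkd1 allele that all 12 mice carried, so no group was wild type. Ksp-Cre is driven by a promoter that is active in kidney tubule epithelium, whereas the Δ17 deletion of the miR-17 binding motif in the Pkd2 3′-UTR was made in fertilized eggs and so was present in every cell. The background was C57BL/6 in the labels and C57BL/6 J in the study's methods, and the sex of the mice is not given in the labels.

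Before a cell divides, its origins of replication are licensed in G1 phase, when the origin recognition complex, Cdc6 and Cdt1 load the ring-shaped MCM2-7 helicase onto DNA. At the start of S phase Cdc45 and the GINS complex join the ring and switch it on, and DNA polymerases held by the sliding clamp PCNA then copy both strands. E2F transcription factors, released from Rb proteins by cyclin-dependent kinases, drive many of these genes, which are low in the mostly resting epithelium of a mature kidney.

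Sequences are shown here for the members in which a promoter match to the E2F site stood beside a rise of at least 2-fold and had its whole 30-base window upstream of the start site, since E2F factors are known regulators of many of these genes. RefSeq promoters (250 bases before to 50 after the start site, build GRCm38.p6) were found for 35 of the 43 members. The words searched on both strands were TTTCCCGC, TTTGGCGC, TTTGCCGC and TTTCGCGC, some of which overlap each other where sites lie side by side. At least 1 of them was present in 14 of the 35 promoters, or 40.0%, against 704 of 27025 genes with a promoter, or 2.61%. Such words were also present in 11 of 39 promoters (28.2%) of the further replication genes described below. The share was 6 of 17 (35.3%) in the E2F and Rb circuit and 1 of 11 (9.09%) in the mitosis genes described below. By role, the words were most frequent among the licensing genes, with 7 of 9, and nucleotide supply had 0 of 5. Mcm6, Mcm7, Gins3, Pola1 and Cdk2 also had an upstream window with a word. They rose less than 2-fold with Pkd2 +/+ and are not shown. The matched word is in capitals in the following windows, which lie wholly before the RefSeq start site and are written in the direction of the gene.
Mcm5, chr8:75109345-75109374, forward strand: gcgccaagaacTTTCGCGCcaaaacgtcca
Cdc6, chr11:98908002-98908031, forward strand: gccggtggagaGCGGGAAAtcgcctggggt
Orc1, chr4:108579416-108579445, forward strand: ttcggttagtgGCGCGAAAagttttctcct
Uhrf1, chr17:56304117-56304146, forward strand: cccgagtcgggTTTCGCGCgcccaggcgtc
By GENCODE M21, the Mcm5 window lies before the gene, the Orc1 gene begins inside its window, and the Cdc6 and Uhrf1 windows lie inside the genes. In Mcm5 a second word, GCGCCAAA, overlaps the one shown. The 14 members with a word had a median log2 fold change of 1.18 between cystic and noncystic Pkd2 +/+ kidneys and the 21 without had one of 0.76, with ranges of 0.49 to 1.83 and 0.26 to 2.01 that overlap. Such a match describes letters in a window and does not show that a factor was bound. The CCAAT word, which is common in promoters of cell cycle genes, was present in 21 of the 35 members (60.0%) and in 41.1% of all genes with a promoter.

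One member also contains microRNAs with the seed of miR-17, whose motif was deleted from Pkd2. Mcm7, a subunit of the MCM ring at chr5:138164583-138172422 on the reverse strand of GRCm38, contains the hairpins of miR-106b, miR-93 and miR-25. The mature sequences are given with the seed, bases 2 to 8, in capitals, next to miR-17-5p from chromosome 14.
mmu-miR-17-5p: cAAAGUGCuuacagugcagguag
mmu-miR-106b-5p: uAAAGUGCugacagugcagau
mmu-miR-93-5p: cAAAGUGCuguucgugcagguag
mmu-miR-25-3p: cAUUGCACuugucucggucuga
The first 3 share the seed AAAGUGC, and miR-25-3p has another. Gene counts of Mcm7 do not measure these microRNAs, whose levels were not analysed here.

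Total counts per mouse ran from 18800307 to 24453033, and a member had between 5 and 3854 reads in a mouse. Pkd2 itself stood at 194 to 219 CPM in noncystic and 213 to 233 CPM in cystic Pkd2 +/+ kidneys, and at 271 to 286 and 307 to 337 CPM in the Pkd2 Δ17/Δ17 groups, so that every Δ17/Δ17 mouse lay above every +/+ mouse of its kind. CPM puts reads of a gene on a scale that is corrected for the size and composition of each library. By Xist, 6 of the 12 mice had the pattern of females. With Pkd2 +/+ they were mouse 19 (noncystic) and mice 25 and 26 (cystic). With Pkd2 Δ17/Δ17 they were mice 22 and 23 (noncystic) and mouse 28 (cystic), so the pattern was uneven between groups. The markers of whole kidney were present, with the 8 proximal tubule genes summing to 7389 to 9451 CPM in noncystic mice. In whole tissue, fewer cells of a type and less RNA per cell cannot be told apart, and this holds for every value that follows.

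To ask how the replication genes differ in cystic disease, cystic Pkd1 RC/- and noncystic Pkd1 RC/+ kidneys were compared within each Pkd2 genotype. With intact Pkd2, 41 of the 43 members were higher in cystic kidneys and none was lower in edgeR's quasi-likelihood test (adjusted p under 0.05), whereas 16.9% of all genes tested were called higher and 31.1% were called in either direction. The median member rose by 0.98 on the log2 scale, against a median of 0.02 over all genes, and all 43 members had a log2 fold change above 0. Of the members 21 were called higher with a rise of at least 2-fold, as were 5.93% of all genes. The groups did not overlap in 41 members, against 22% of all genes with every cystic mouse higher. The members took 0.0780 to 0.0934% of the reads of a noncystic Pkd2 +/+ mouse and 0.159 to 0.188% of those of a cystic Pkd2 +/+ mouse.

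With Pkd2 Δ17/Δ17 in both groups, 40 members were higher in cystic kidneys and none was lower in the same edgeR test, with 12.8% of all genes called higher and 23% called in either direction. The median log2 fold change was 0.94, and the members took 0.0755 to 0.0911% of the reads in noncystic and 0.148 to 0.185% in cystic mice. The comparison shares no mouse with the preceding one, but the spread used in both tests was estimated over all 12 mice. Each of the 6 cystic mice lay above each of the 6 noncystic mice in 39 members, against 12.3% of all genes, and the exceptions were Gins4, Pola2, Tyms and Dut. Within the Δ17/Δ17 mice alone, every cystic mouse lay above every noncystic mouse in 41 members, against 20.2% of all genes.

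**Figure D1:**
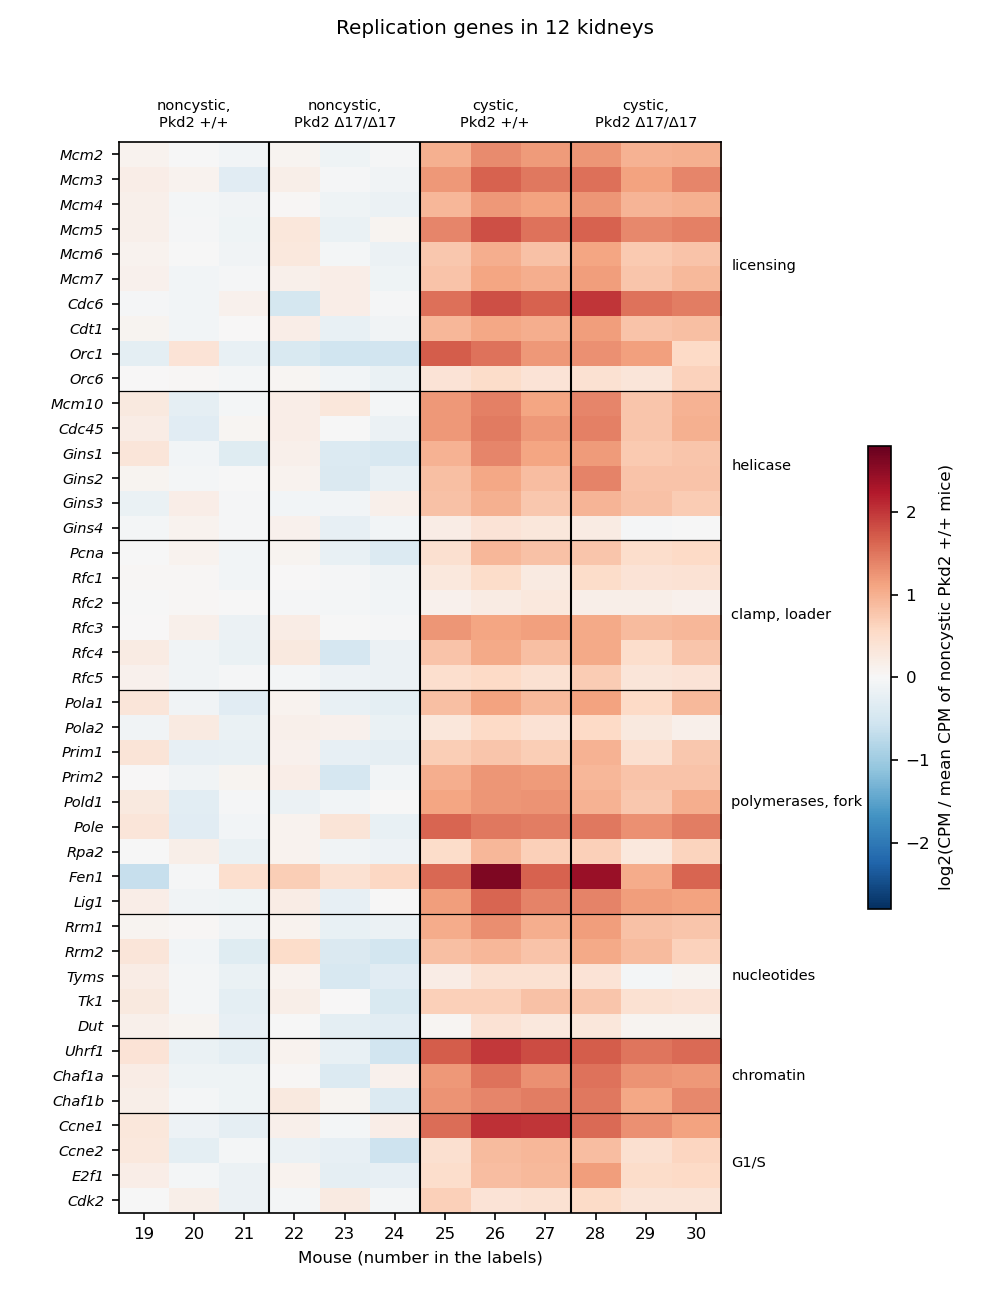
Level of each of the 43 genes (rows, grouped by role) in each of the 12 mice (columns, with black lines between the 4 groups), as the log2 ratio of its CPM to the mean CPM of the 3 noncystic Pkd2 +/+ mice, in colour from blue (lower) to red (higher). The 6 cystic mice are red in nearly every row, and Gins4, Rfc2, Tyms and Dut are the palest rows there.

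The licensing genes rose together, all 10 of them in both Pkd2 genotypes, with a median log2 fold change of 1.13 in each. Mcm5, 1 of the 6 ring subunits of the helicase, was at 24.9, 22.1 and 20.7 CPM in the noncystic Pkd2 +/+ mice and at 58.5, 78.6 and 65.1 CPM in the cystic ones. With Pkd2 Δ17/Δ17 it was at 28.2, 19.9 and 23.9 CPM in noncystic and 71.0, 57.2 and 60.3 CPM in cystic mice. The cystic and noncystic mice were thus well apart in both genotypes. Its log2 fold change was 1.58 ± 0.13 (standard error; adjusted p = 2.35e-07, edgeR's quasi-likelihood test) with Pkd2 +/+ and 1.39 ± 0.13 (adjusted p = 2.33e-06) with Pkd2 Δ17/Δ17. The other ring subunits rose by 1.46 ± 0.14 (Mcm3), 1.17 ± 0.10 (Mcm2), 1.09 ± 0.11 (Mcm4), 0.98 ± 0.11 (Mcm7) and 0.87 ± 0.12 (Mcm6) with Pkd2 +/+. In Δ17/Δ17 kidneys the same subunits rose by 1.35 ± 0.14, 1.10 ± 0.10, 1.15 ± 0.11, 0.88 ± 0.11 and 0.86 ± 0.12. Over these 5 genes and both genotypes, adjusted p ran from 2.35e-07 to 6.25e-05 in the edgeR test.

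The genes that load the ring rose as well. Cdc6, the ATPase that brings the helicase to the origin, was at 3.95, 3.82 and 4.37 CPM in noncystic and 11.7, 14.1 and 12.7 CPM in cystic Pkd2 +/+ mice, a log2 fold change of 1.66 ± 0.19 (adjusted p = 3.96e-06, edgeR), and rose by 1.76 ± 0.19 (adjusted p = 6.45e-06, edgeR) with Pkd2 Δ17/Δ17. Orc1, the subunit of the origin recognition complex that cycles with the cell cycle, was the lowest of the licensing genes per kilobase of exon. It was at 0.727, 1.14 and 0.763 CPM in noncystic and 2.83, 2.497 and 2.02 CPM in cystic Pkd2 +/+ mice, and at 0.654, 0.6001 and 0.605 and 2.12, 1.96 and 1.30 CPM in the Pkd2 Δ17/Δ17 groups. The rise of Orc1 was 1.48 ± 0.30 (adjusted p = 0.000882, edgeR) and 1.52 ± 0.31 (adjusted p = 0.0018, edgeR), with the widest error of the licensing genes. Cdt1, the partner of Cdc6 in loading, rose by 1.02 ± 0.13 and 0.98 ± 0.13. Orc6, the smallest subunit of the origin recognition complex, rose least of the 10, by 0.43 ± 0.11 and 0.54 ± 0.11. For Cdt1 and Orc6 adjusted p was between 9.67e-06 and 0.00708 in the edgeR test.

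The genes that activate the helicase were called in 6 of 6 cases with Pkd2 +/+ and in 5 of 6 with Pkd2 Δ17/Δ17. Cdc45, which joins the MCM ring to form the active helicase, was at 6.70, 4.62 and 5.95 CPM in noncystic and 13.4, 15.8 and 13.3 CPM in cystic Pkd2 +/+ mice. It rose by 1.30 ± 0.18 with Pkd2 +/+ (adjusted p = 3.14e-05, edgeR) and by 1.07 ± 0.18 with Pkd2 Δ17/Δ17 (adjusted p = 0.000356, edgeR). Mcm10, a firing factor, rose by 1.24 ± 0.19 and 0.90 ± 0.19. The GINS complex has 4 subunits, of which Gins1 rose by 1.15 ± 0.21 and 1.12 ± 0.22, Gins2 by 0.93 ± 0.17 and 1.18 ± 0.17, and Gins3 by 0.86 ± 0.16 and 0.83 ± 0.16. For Mcm10 and these GINS genes adjusted p ran from 7.48e-05 to 0.002 in the edgeR test.

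The fourth GINS subunit had the smallest change of the complex. Gins4 was at 29.2, 32.6 and 29.6 CPM in noncystic and 35.3, 40.0 and 38.2 CPM in cystic Pkd2 +/+ mice, and at 33.1, 25.8 and 28.8 and 35.8, 29.8 and 30.02 CPM with Pkd2 Δ17/Δ17, where the groups overlapped. Its log2 fold change was 0.31 ± 0.11 (adjusted p = 0.0315, edgeR) with Pkd2 +/+ and 0.12 ± 0.11 (adjusted p = 0.464, edgeR; 95% interval -0.10 to 0.35) with Pkd2 Δ17/Δ17. Per kilobase of exon, Gins4 was at 22.6 CPM in noncystic Pkd2 +/+ kidneys, against 2.87, 2.20 and 1.74 CPM for Gins1, Gins2 and Gins3. The call for Gins4 with Pkd2 +/+ was lost without mouse 19, 21, 26 or 27.

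**Figure D2:**
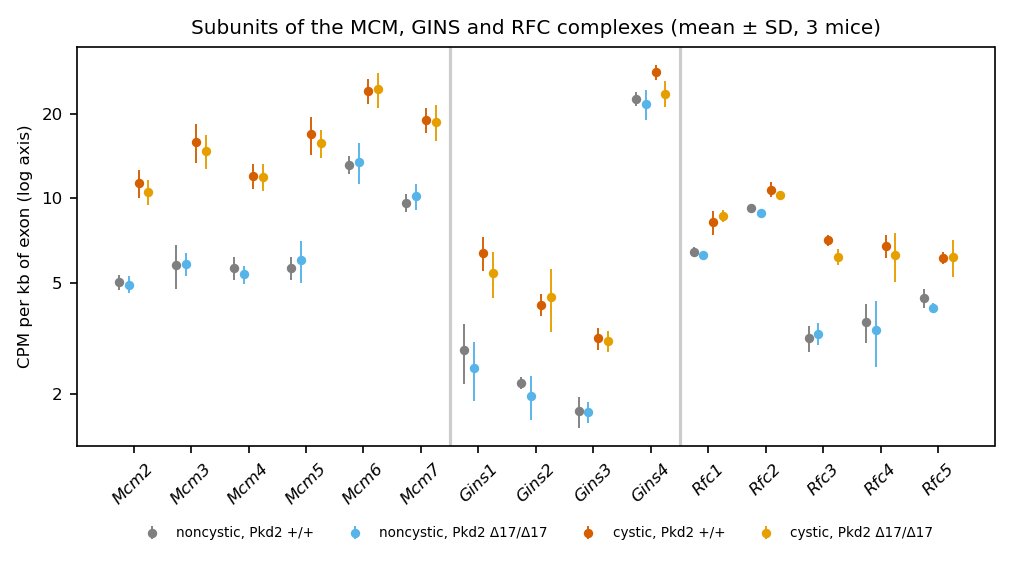
CPM per kilobase of exon (log axis) of the subunits of the MCM ring, the GINS complex and the RFC clamp loader, with points for the mean and bars for the SD of 3 mice in each of the 4 groups. All 6 MCM genes separate cystic from noncystic mice, whereas Gins4 and Rfc2, the highest of their complexes, show the smallest distance between them.

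Among the clamp and its loader all 6 genes rose in both genotypes, and their medians, 0.61 with Pkd2 +/+ and 0.69 with Pkd2 Δ17/Δ17, were below those of the licensing genes. Pcna, the sliding clamp that holds polymerases on DNA, was at 98.3, 106 and 94.7 CPM in noncystic and 137, 189 and 176 CPM in cystic Pkd2 +/+ mice. It rose by 0.75 ± 0.12 (adjusted p = 0.000149, edgeR) and by 0.77 ± 0.12 with Pkd2 Δ17/Δ17 (adjusted p = 0.000193, edgeR). Per kilobase of exon it was the most abundant member in every group, at 41.5 CPM in noncystic and 69.7 CPM in cystic Pkd2 +/+ kidneys. The replication factor C subunits, which open the clamp and close it around DNA, rose by unequal amounts. Rfc3 rose most, from 11.5, 12.6 and 10.2 CPM to 26.8, 24.5 and 25.4 CPM with Pkd2 +/+, by 1.16 ± 0.11 (adjusted p = 8.34e-07, edgeR), and by 0.91 ± 0.11 with Pkd2 Δ17/Δ17 (adjusted p = 2.2e-05, edgeR). Rfc4 rose by 0.91 ± 0.20 and 0.88 ± 0.20, Rfc5 by 0.48 ± 0.11 and 0.60 ± 0.11, and Rfc1, the large subunit, by 0.35 ± 0.08 and 0.47 ± 0.08. Over these 3 genes adjusted p ran from 0.000577 to 0.00413 in the edgeR test. Rfc2 had the smallest rise of the called members, 0.22 ± 0.07 (adjusted p = 0.022, edgeR) and 0.20 ± 0.07 (adjusted p = 0.041, edgeR), and lost its call with Pkd2 +/+ without mouse 19, 20, 21, 26 or 27 and with Pkd2 Δ17/Δ17 without any 1 of the 6 mice.

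The polymerases and fork enzymes rose in 9 of 9 cases with Pkd2 +/+ and in 8 of 9 with Pkd2 Δ17/Δ17. Pole, the catalytic subunit of the leading-strand polymerase ε, was at 7.63, 4.85 and 5.75 CPM in noncystic and 18.7, 16.99 and 16.5 CPM in cystic Pkd2 +/+ mice, and rose by 1.51 ± 0.17 (adjusted p = 3.5e-06, edgeR). Lig1, the ligase that joins Okazaki fragments, went from 26.1, 21.4 and 20.9 CPM to 51.5, 71.0 and 59.8 CPM, a rise of 1.41 ± 0.14 (adjusted p = 7.65e-07, edgeR). Neither gene had overlapping groups. Pold1, the catalytic subunit of the lagging-strand polymerase δ, went from 25.7, 17.1 and 20.5 CPM to 45.2, 49.3 and 50.3 CPM, a rise of 1.19 ± 0.12 (adjusted p = 1.47e-06, edgeR). In Δ17/Δ17 kidneys the rises of Pole, Lig1 and Pold1 were 1.30 ± 0.17, 1.24 ± 0.14 and 1.01 ± 0.12, with adjusted p from 7.3e-06 to 3.43e-05 in the edgeR test.

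Polymerase α and primase start each new strand. Prim2, its large primase subunit, rose by 1.15 ± 0.15 and 0.94 ± 0.15, Prim1, the catalytic primase subunit, by 0.72 ± 0.16 and 0.85 ± 0.16, and Pola1, the catalytic subunit of polymerase α, by 0.96 ± 0.17 and 0.997 ± 0.18. Pola2, its accessory subunit, rose by 0.43 ± 0.14 with Pkd2 +/+ (adjusted p = 0.0259, edgeR) and was not called with Pkd2 Δ17/Δ17, at 0.30 ± 0.14 (adjusted p = 0.141, edgeR; 95% interval 0.01 to 0.60). Rpa2, which coats single-stranded DNA, rose by 0.72 ± 0.14 and 0.58 ± 0.14. For Prim1, Prim2, Pola1 and Rpa2 adjusted p ran from 1.94e-05 to 0.00491 in the edgeR test. The call for Pola2 with Pkd2 +/+ was lost without mouse 19, 21, 26 or 27.

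Fen1, the flap nuclease of Okazaki fragment maturation, had the highest log2 fold change of the 43 with Pkd2 +/+, though not with Pkd2 Δ17/Δ17, and the least reads. It was at 0.260, 0.399 and 0.560 CPM in noncystic and 1.24, 2.497 and 1.27 CPM in cystic Pkd2 +/+ mice, and at 0.654, 0.546 and 0.605 and 2.16, 0.831 and 1.25 CPM with Pkd2 Δ17/Δ17. Its rise was 2.01 ± 0.45 (adjusted p = 0.00209, edgeR) and 1.23 ± 0.43 (adjusted p = 0.0496, edgeR), and the second call was lost without mouse 22, 23, 24, 28 or 30. The gene, at chr19:10199132-10204169 on the reverse strand, shares 84.2% of its exon bases with genes on the other strand, Tmem258 and Gm10143. Since the strand setting of the counting is not given in the sources used here, its values are uncertain. The same holds to a lesser degree for Gins2 and Chaf1a, with 67.3% and 52.5% of exon bases shared, and near-identical copies cover 72.8% of the Mcm7 transcript, 51.4% of Pcna and 44.3% of Uhrf1. Such copies also cover 26.7% of Tyms, 26.1% of Cdc6, 21.2% of Rfc5 and 19.1% of Rrm2.

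Nucleotide supply was the role with most genes that did not pass. Rrm1, the large subunit of ribonucleotide reductase, which makes deoxynucleotides, was at 39.9, 38.7 and 35.6 CPM in noncystic and 77.7, 93.5 and 77.5 CPM in cystic Pkd2 +/+ mice, a rise of 1.12 ± 0.11 (adjusted p = 1.42e-06, edgeR). Rrm2, the small subunit made in S phase, went from 44.6, 33.2 and 28.1 CPM to 63.0, 67.0 and 61.3 CPM, a rise of 0.85 ± 0.21 (adjusted p = 0.00485, edgeR). Tk1, the thymidine kinase of dividing cells, rose by 0.72 ± 0.15 (adjusted p = 0.00141, edgeR). The rises of these 3 genes in Δ17/Δ17 kidneys were 1.02 ± 0.12, 0.93 ± 0.21 and 0.60 ± 0.15, with adjusted p from 9.16e-06 to 0.0078 in the edgeR test.

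The other nucleotide genes, Tyms and Dut, were not called with Pkd2 +/+. Tyms, which makes thymidylate, was at 34.4, 28.5 and 25.9 CPM in noncystic and 34.1, 39.6 and 39.7 CPM in cystic Pkd2 +/+ mice, and the groups overlapped. Its log2 fold change was 0.35 ± 0.15 (adjusted p = 0.0822, edgeR; 95% interval 0.04 to 0.66), and 0.35 ± 0.15 with Pkd2 Δ17/Δ17 (adjusted p = 0.111, edgeR; 95% interval 0.03 to 0.66). Dut, which breaks down dUTP, was at 42.8, 40.9 and 33.1 CPM and 40.2, 51.9 and 47.6 CPM with Pkd2 +/+, again overlapping. Its log2 fold change of 0.26 ± 0.12 was not called (adjusted p = 0.124, edgeR; 95% interval 0.00 to 0.51), and that of 0.35 ± 0.12 with Pkd2 Δ17/Δ17 was (adjusted p = 0.0451, edgeR). With Pkd2 Δ17/Δ17 the call for Dut was lost without mouse 23, 24, 28, 29 or 30. Tyms was called with Pkd2 +/+ without mouse 19 and Dut without mouse 25, and both were called with scaling by library totals.

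The 3 genes that copy chromatin rose at least 2-fold in both genotypes. Uhrf1, which reads hemimethylated DNA behind the fork and brings in the maintenance methyltransferase, was at 19.005, 12.8 and 12.1 CPM in noncystic and 47.2, 57.6 and 52.1 CPM in cystic Pkd2 +/+ mice. Its rise was 1.83 ± 0.16 (adjusted p = 3.54e-07, edgeR) with Pkd2 +/+ and 1.78 ± 0.16 (adjusted p = 1.52e-06, edgeR) with Pkd2 Δ17/Δ17. Chaf1a and Chaf1b are subunits of the chromatin assembly factor that sets new histones on DNA. Chaf1a rose by 1.34 ± 0.15 and 1.40 ± 0.15, and Chaf1b by 1.35 ± 0.16 and 1.29 ± 0.16, with adjusted p from 3.42e-06 to 1.89e-05 in the edgeR test.

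The 4 genes of G1/S control rose in both genotypes. Ccne1, the cyclin E that activates Cdk2 at the start of S phase, lies at chr7:38097984-38107534 on the reverse strand and was at 3.32, 2.40 and 2.24 CPM in noncystic and 7.86, 11.0 and 10.6 CPM in cystic Pkd2 +/+ mice. With Pkd2 Δ17/Δ17 it was at 2.94, 2.56 and 3.03 CPM in noncystic and 7.93, 6.46 and 5.82 CPM in cystic mice. Its rise was 1.88 ± 0.21 (adjusted p = 2.86e-06, edgeR) with Pkd2 +/+ and 1.24 ± 0.21 (adjusted p = 0.000299, edgeR) with Pkd2 Δ17/Δ17. The other cyclin E gene, Ccne2, rose by 0.76 ± 0.19 and 0.95 ± 0.20, and E2f1, the activating E2F factor, by 0.76 ± 0.17 and 0.89 ± 0.17. Cdk2, the kinase partner of cyclin E, rose by 0.49 ± 0.11 and 0.36 ± 0.11. The call for Cdk2 with Pkd2 Δ17/Δ17 was lost without mouse 22, 24 or 28. Over Ccne2, E2f1 and Cdk2, adjusted p ran from 0.00108 to 0.0269 in the edgeR test.

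**Figure D3:**
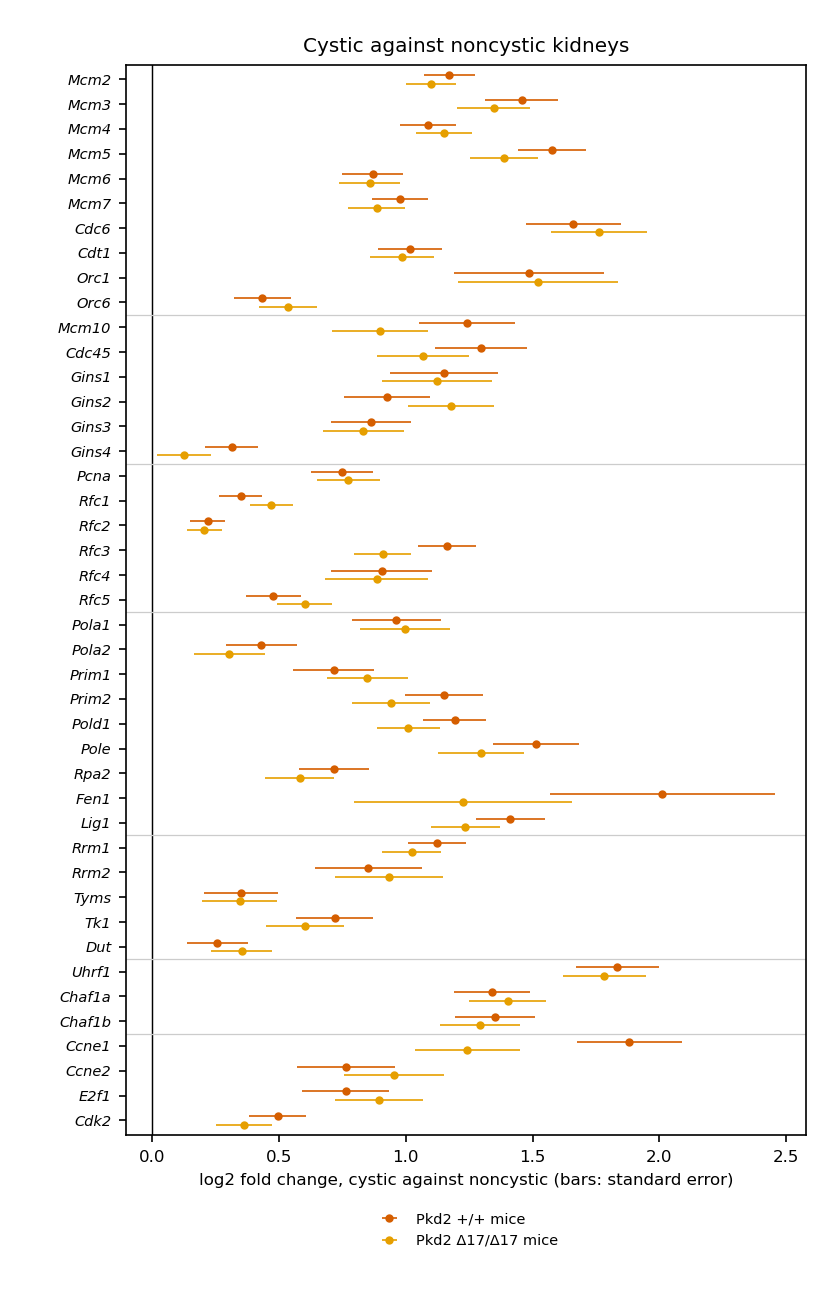
Log2 fold change of each of the 43 genes between cystic and noncystic kidneys (points; bars, standard error) with Pkd2 +/+ and with Pkd2 Δ17/Δ17, in order of role. All points lie above 0, from 0.22 (Rfc2) to 2.01 (Fen1) with Pkd2 +/+, and those of both genotypes lie close together in most rows.

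Over the 43 members, the rise with Pkd2 +/+ was larger in genes that were low in noncystic kidneys. Across genes, Pearson's r with the log2 CPM per kilobase in noncystic Pkd2 +/+ mice was -0.61 and Spearman's rho -0.58, as a description, since the points share the same libraries and the noncystic level enters both axes.

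Other genes of the same process moved less evenly. Of 47 further replication genes, 27 were higher and 1 was lower in cystic Pkd2 +/+ kidneys in the edgeR test, with a median log2 fold change of 0.37, and 28 were higher with Pkd2 Δ17/Δ17. Ticrr, which helps fire origins, and Dscc1, a subunit of an alternative clamp loader, rose most with 2.31 ± 0.26 and 1.94 ± 0.30. Of 25 genes of the E2F and Rb circuit, 17 were higher and 2 lower, with a median of 0.49. E2f8, a repressing E2F factor, and Ccna2, the cyclin of S and G2 phase, rose by 1.63 ± 0.25 and 1.57 ± 0.23, and Cdkn1c, a cyclin-dependent kinase inhibitor, and E2f5 had log2 fold changes of -1.46 ± 0.27 and -0.29 ± 0.09. All 12 mitosis genes were higher, with a median of 1.42, led by Top2a and Plk1 at 1.66 ± 0.20 and 1.62 ± 0.20.

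**Figure D4:**
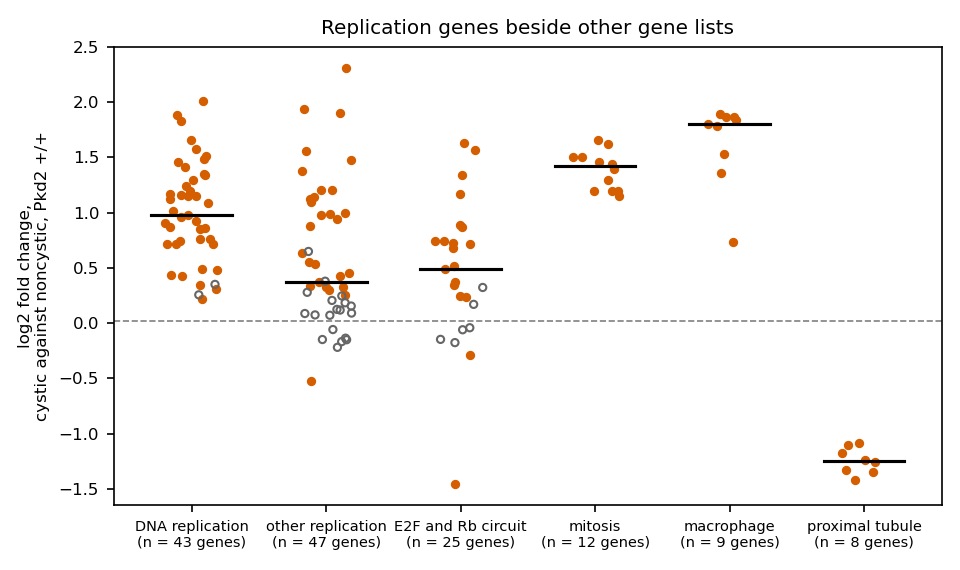
Log2 fold change between cystic and noncystic Pkd2 +/+ kidneys for the 43 replication genes and 5 other lists (filled points, adjusted p under 0.05 in edgeR's test; open points, not called; bars, the median of the list; dashed line, the median of all genes tested). The medians are 0.98 for the replication genes, 0.37 for other replication genes, 0.49 for the E2F and Rb circuit, 1.42 for mitosis, 1.80 for macrophage and -1.25 for proximal tubule markers.

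Markers of other cell types moved with the same groups. All 8 proximal tubule markers were lower in cystic Pkd2 +/+ kidneys, their summed level being 7389 to 9105 CPM in noncystic and 2760 to 3793 CPM in cystic mice. All 9 macrophage markers were higher, with sums of 195 to 199.6 CPM and 485 to 667 CPM. Of 9 fibroblast markers 5 were higher and 2 lower, of 7 podocyte markers 1 was higher and 6 lower, and of 8 thick limb and distal tubule markers 1 was higher and 6 lower. The summed level was 2081 to 2291 CPM in noncystic and 3283 to 4988 CPM in cystic Pkd2 +/+ mice for fibroblast markers, and 623 to 736 CPM and 349 to 412 CPM for podocyte markers. No proximal tubule or macrophage marker was at 0. Their part in the rise of the replication genes was not tested.

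To ask whether deletion of the Pkd2 motif changes the replication genes of cystic kidneys, the 2 cystic groups were compared. None of the 43 members was called in edgeR's quasi-likelihood test, in which 2.23% of all genes were, and none was called by DESeq2 or limma-trend. At an unadjusted p under 0.05 there were 3 members (Ccne1, Gins4 and Pold1), against 14.3% of all genes at that level. The median log2 fold change was -0.10, against 0.00 for all genes, with 33 members below 0 and 10 above. The groups did not overlap in 3 members, all lower with the deletion (Rfc3, Prim2 and Pold1), whereas 19% of all genes had no overlap.

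The largest changes were those of Ccne1, Orc1 and Prim2. Ccne1 was at 7.86, 11.0 and 10.6 CPM in cystic Pkd2 +/+ and 7.93, 6.46 and 5.82 CPM in cystic Pkd2 Δ17/Δ17 mice, where 1 mouse of the deletion group lay inside the range of the other group. Its log2 fold change was -0.54 ± 0.19 (adjusted p = 0.183, edgeR; 95% interval -0.95 to -0.13). Orc1 had -0.45 ± 0.27 (adjusted p = 0.498, edgeR; 95% interval -1.04 to 0.13). Prim2, at 13.8, 16.2 and 15.6 CPM and 13.1, 11.9 and 11.8 CPM, had -0.31 ± 0.15 (adjusted p = 0.365, edgeR; 95% interval -0.62 to 0.01). The other 40 members lay between -0.27 and 0.10.

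A missed threshold does not show that the groups are alike. The 95% interval of the deletion's effect lay within a 1.5-fold change in either direction for 38 of the 43 members and within 2-fold for 41. Cdt1 had an interval of -0.32 to 0.19, Mcm2 one of -0.30 to 0.11 and Pcna one of -0.39 to 0.12 on the log2 scale, so that falls beyond these bounds were not within the interval. The members deviated together within groups: in cystic Pkd2 Δ17/Δ17 kidneys mouse 28 had 42 of 43 members above its group's mean and mouse 29 had 3, and in cystic Pkd2 +/+ kidneys mouse 26 had 39 and mouse 25 had 4. Leaving out mouse 28 moved the median to -0.22 and leaving out mouse 26 moved it to -0.03. With Xist as a covariate, which stands in for sex, the median was -0.06, and the cystic groups held 2 and 1 mice with the female pattern.

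**Figure D5:**
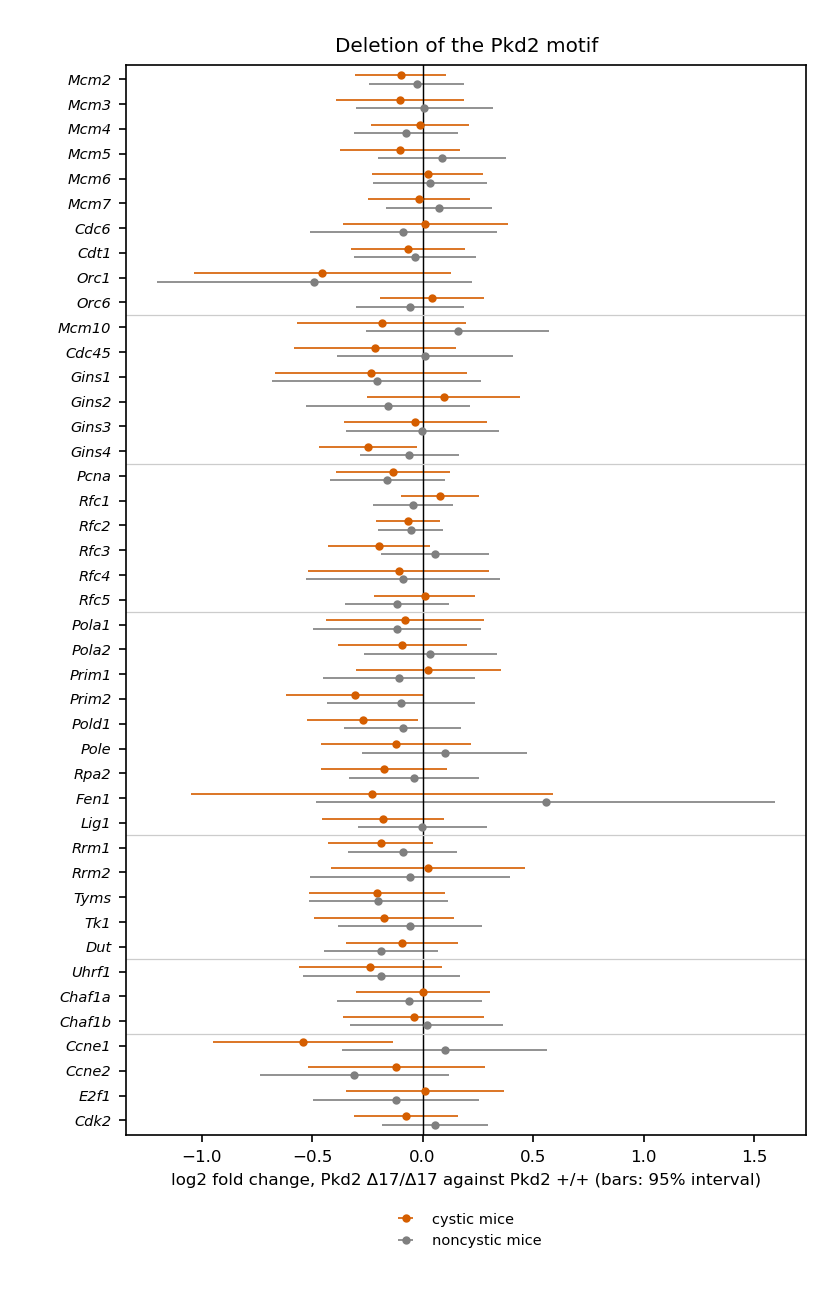
Log2 fold change of each of the 43 genes between Pkd2 Δ17/Δ17 and Pkd2 +/+ kidneys (points; bars, 95% interval) in cystic and in noncystic mice. Most intervals include 0, and those of Ccne1, Gins4 and Pold1 in cystic mice lie below it.

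The other cell cycle lists in the same comparison were also mostly uncalled. The 12 mitosis genes had a median of -0.20, all 12 below 0 and none called, and of the 47 further replication genes none was called, with a median of 0.00. In the E2F and Rb circuit 1 of 25 genes was called, Cdkn1c, which was higher with the deletion by 1.37 ± 0.27 (adjusted p = 0.0153, edgeR). Of all genes tested, 2.23% were called in this comparison. Among the cell type markers, 5 of 9 macrophage genes were lower and 3 of 8 proximal tubule genes higher with the deletion. Of 8 thick limb and distal tubule genes 1 was higher, Slc12a1, at 0.93 ± 0.10 (adjusted p = 0.000704, edgeR). The sums were 337 to 465 CPM for macrophage and 3698 to 5020 CPM for proximal tubule markers in cystic Pkd2 Δ17/Δ17 mice. The thick limb and distal tubule markers summed to 2017 to 2624 CPM in cystic Pkd2 +/+ and 3598 to 3851 CPM in cystic Pkd2 Δ17/Δ17 mice, without overlap. The part of these shifts in the values of the members was not tested.

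In noncystic kidneys, none of the 43 members was called for the deletion in edgeR's test (0.00406% of all genes were) and none had an unadjusted p under 0.05. The median log2 fold change was -0.06, and the 95% interval lay within 1.5-fold for 39 members. The median was 0.02 without mouse 19 and -0.14 without mouse 22, where 4 members had an unadjusted p under 0.05. Ccne1 had 0.10 ± 0.22, Mcm5 0.09 ± 0.14 and Pcna -0.16 ± 0.12, while Orc1 had -0.49 ± 0.34 with an interval of -1.20 to 0.22. Fen1, with the least reads of the members, had the highest value, 0.56, and the highest upper bound of any member was 1.60. Whether the deletion acts differently in cystic and noncystic kidneys was tested by the interaction, which called none of the 43 members (0.0122% of all genes were called). Only Ccne1 had an unadjusted p under 0.05 there, with -0.64 ± 0.29 (adjusted p = 0.586, edgeR). No member did with Xist as a covariate, nor without mouse 20, 21, 24, 26, 27, 29 or 30. The lowest value of the interaction was that of Fen1, -0.79. The comparisons of the deletion and of the cystic genotype share mice, so their values are given side by side only.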

How the data were processed

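Whole kidneys of 12 mice were profiled by RNA-seq. Per the labels and the methods of the study, the authors trimmed reads with Trim Galore 0.6.3, aligned them to GRCm38 with STAR 2.5.3a and deposited raw counts per gene, with no normalization; the strand setting is not given in the sources used here. All columns were matched to mice by the labels. Unnamed genes (343) held 0.0225% of reads and were kept.

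Differences were tested with edgeR 4.0.16 under R 4.3.3 (quasi-likelihood test, TMM factors, one mean per group over 12 mice, 8 residual degrees of freedom, Benjamini-Hochberg adjustment over all genes, threshold 0.05) after removing genes with an average log2CPM below -3 (prior count 2). Standard errors were derived from the test, as the absolute log2 fold change divided by the square root of its F statistic. The 95% intervals were built from these errors and the t distribution. Alternatives used limma 3.58.1 (limma-trend, prior count 3), DESeq2 1.42.0, other scalings and filters, Xist as a covariate and leaving out each mouse. Exon lengths, overlaps and near-identical copies (at least 95% identity over 200 bases) came from GENCODE M21, where 54495 of 54532 genes were found. The fits were checked on simulated data: 4-fold changes were missed in genes of very low count, and the criterion for passing was revised after a first run to leave those genes out.

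The members and gene lists were chosen with earlier results of these data known. All members are named. Called members are given with their log2 fold change and error, and adjusted p singly or as a range within a role. In 2 comparisons the 3 uncalled members with the largest change are also named, or fewer where fewer were uncalled. They are that of the cystic genotype with Pkd2 +/+ and that of the deletion in cystic kidneys. Further uncalled members are given as examples. For other lists, up to 2 genes called higher and up to 2 called lower, with the largest changes, are named. One gene that this rule would name is not reported here. Macrophage, proximal tubule and other marker lists were fixed likewise. Red blood cell markers fell in 7 of 8 cases, endothelium in 5 of 8 and nephron progenitor in 4 of 7 between cystic and noncystic Pkd2 +/+ kidneys. Collecting duct markers rose in 3 and fell in 2 of 8 cases, and lymphocyte markers rose in 2 and fell in 1 of 8. In this comparison 3495 of all 24642 genes tested were called lower and 4170 higher.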

Additional observations from a re-analysis of the deposited data

How the results depend on the processing

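Between cystic and noncystic kidneys, 38 to 43 members were called higher with Pkd2 +/+ and 36 to 43 with Pkd2 Δ17/Δ17 over 9 other settings, and 38 to 42 and 36 to 38 when each mouse was left out in turn. No member changed direction in these 2 comparisons. With Xist as a covariate, 39 members were called higher in each of them, with median log2 fold changes of 0.92 with Pkd2 +/+ and 1.01 with Pkd2 Δ17/Δ17. Scaling by library totals moved the median log2 fold change of all genes from 0.02 to 0.18 with Pkd2 +/+ and from -0.0032 to 0.15 with Pkd2 Δ17/Δ17, and that of the members from 0.98 to 1.13 and from 0.94 to 1.10. With Pkd2 +/+, Gins4, Rfc2 and Pola2 lost their call in at least 1 setting and Tyms and Dut gained one; with Pkd2 Δ17/Δ17, Rfc2, Fen1, Dut and Cdk2 lost theirs and Gins4, Pola2 and Tyms gained one. The cause was not tested. The deletion gave 0 called members in cystic kidneys, in noncystic kidneys and in the interaction under every setting run, with 1 to 6 members at an unadjusted p under 0.05 in cystic kidneys. The median for the deletion in noncystic kidneys turned to 0.02 without mouse 19, and that of the interaction to 0.05 with Xist as a covariate. A filter of at least 10 counts in every mouse removed Fen1. No paired analysis was possible because the labels give no pairing of mice, and any litters shared between groups are not accounted for.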

Other observations

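The histone genes of the replication-dependent clusters, which supply the histones for new chromatin, did not move with the members. This list was chosen after the data were seen, by the pattern of the gene symbols. Of 66 such genes, 44 were tested, and between cystic and noncystic Pkd2 +/+ kidneys 16 were lower and none was higher in edgeR's quasi-likelihood test, with a median log2 fold change of -0.96. With Pkd2 Δ17/Δ17, 8 were lower and none was higher, with a median of -0.82. Of all 24642 genes tested, 3495 were lower with Pkd2 +/+ and 2515 with Pkd2 Δ17/Δ17. For the deletion in noncystic kidneys none of the 44 was called, yet their median was -0.51, with a range of -4.16 to 1.73. These transcripts mostly lack a poly(A) tail, and how the libraries selected RNA is not given in the sources used here.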
